A study of Rattus norvegicus with 15 samples.

Results

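Insulin, AKT and FoxO signalling was followed through 8 genes of rat embryonic cortex: the insulin receptor Insr, its docking proteins Irs1 and Irs2, the kinases Akt1, Akt2 and Mtor, and the transcription factors Foxo1 and Foxo3. They were taken by gene name from a table of 32623 genes, each name stood on a single row, and all 8 were among the 15417 genes that passed a filter on low counts. RNA came from embryonic brain cortex of Wistar rats at E14.5, E16.5 or E18.5. In the HFD groups the mothers ate a high-fat diet with 60% of its calories as fat before and during gestation and had become obese, and in the control groups they ate normal chow. All sires ate normal chow, and the methods describe a library as the pooled cortices of 1 litter. There were 2 HFD and 3 control libraries at each stage, 15 in all, sequenced as RNA depleted of ribosomal RNA. The p-values measure the spread between these libraries.

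Insulin and related growth factors bind receptor tyrosine kinases, which phosphorylate IRS docking proteins. These recruit PI3-kinase, whose lipid product brings AKT to the membrane, where it is switched on. Active AKT raises mTOR activity and phosphorylates FoxO factors, which then leave the nucleus, so that FoxO factors drive their targets when the signal is low. Most of this control acts on proteins, and transcript levels such as those here do not measure phosphorylation or location.

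Libraries held 5598195 to 9529978 counts. Levels are in CPM, counts scaled to the same TMM-adjusted library total. The library labelled E18.5 control replicate 1 stood apart from the other E18.5 control libraries, with a biological coefficient of variation (the spread between a pair of libraries) of 0.469 and 0.473, against 0.125 to 0.272 for other pairs within groups. Its values are given apart, and the fit covered the other 14 libraries, so that E18.5 had 2 control libraries. Tests were edgeR's quasi-likelihood tests with Benjamini-Hochberg adjustment over all 15417 genes and a threshold of 0.05. The cortical markers Tbr1 and Emx1 were detected in every group. Markers of tissue around the brain were low at E16.5, where 11 head mesenchyme and meninges genes summed to 451 to 1098 CPM, and high at E14.5, where they summed to 4878 and 4345 CPM in HFD libraries and to 5786, 3200 and 1827 CPM in control libraries 1, 2 and 3. The sum of 10 cortical neuron genes was 5477 to 6533 CPM at E16.5 and 1356 to 3395 CPM at E14.5. In such bulk tissue, fewer cells of a type and less RNA per cell cannot be told apart.

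RefSeq promoter windows (build GRCr8, 250 bases before to 50 after the start of the gene) matched 6 of the 8 genes, all except Irs2 and Foxo3. The windows of Insr, Irs1 and Foxo1 are shown because, among the members with a window, they had the largest log2 fold changes between E14.5 and E16.5 on the HFD, Insr in the opposite direction to Irs1 and Foxo1. On control chow Foxo1 did not pass. Capitals mark the forkhead word GTAAACA with its longer form GTAAACAA, which contains it, and the GC-box word GGGCGG. All were searched on both strands, so that a match on the reverse strand reads TTGTTTAC or CCGCCC.
Insr, chr12:6128754-6129053, minus strand: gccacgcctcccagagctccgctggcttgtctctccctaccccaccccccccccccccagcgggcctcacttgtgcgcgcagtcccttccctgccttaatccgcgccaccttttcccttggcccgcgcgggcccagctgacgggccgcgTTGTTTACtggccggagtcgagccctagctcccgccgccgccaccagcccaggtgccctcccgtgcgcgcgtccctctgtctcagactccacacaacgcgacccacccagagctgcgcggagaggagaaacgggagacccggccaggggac
Irs1, chr9:91053910-91054209, minus strand: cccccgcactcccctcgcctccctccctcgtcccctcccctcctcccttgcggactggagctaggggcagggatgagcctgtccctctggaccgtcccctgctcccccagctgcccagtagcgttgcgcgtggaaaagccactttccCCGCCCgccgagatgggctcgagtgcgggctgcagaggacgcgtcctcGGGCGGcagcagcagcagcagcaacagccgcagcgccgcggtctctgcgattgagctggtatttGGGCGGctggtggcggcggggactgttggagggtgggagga
Foxo1, chr2:138462724-138463023, plus strand: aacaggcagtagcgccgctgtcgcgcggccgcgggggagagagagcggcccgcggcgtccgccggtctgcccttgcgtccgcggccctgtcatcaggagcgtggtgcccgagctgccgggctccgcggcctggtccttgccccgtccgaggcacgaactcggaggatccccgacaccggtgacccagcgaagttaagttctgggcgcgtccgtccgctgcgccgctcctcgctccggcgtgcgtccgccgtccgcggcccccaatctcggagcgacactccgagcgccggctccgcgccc

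The Insr window held 1 forkhead word in its longer form, on the reverse strand at bases 150 to 157 of the window. GTAAACA occurred in 3.78% and GTAAACAA in 1.1% of all 33469 windows of the same length, and no other member window held either. GGGCGG occurred 3 times in the Irs1 window and 4 times in that of Mtor, and 33.1% of all windows held it. The Foxo1 window held none of these words but had 75% G and C bases and 49 CG dinucleotides, against medians of 51.7% and 7 over all windows. The windows of Insr (71.3% and 28) and Irs1 (70.3% and 25) also lay above these medians. These matches are letters in a window and were not tested for binding.

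Across the 14 libraries, Foxo1, Irs1 and Foxo3 were the most variable members and Mtor and Akt1 the steadiest. The highest library exceeded the lowest 2.98-fold for Foxo1, 2.62-fold for Foxo3 and 2.59-fold for Irs1. For Irs2 and Insr the ratio was 1.70, and for Akt2, Akt1 and Mtor it was 1.52, 1.44 and 1.32. Ranked by the SD of log2 CPM among all genes tested, Mtor lay at percentile 3.36 and Akt1 at 7.50, while Irs1 lay at 58.2 and Foxo1 at 59.6. By this ranking the kinases at the core of the pathway were among the steadier genes of the cortex, and the FoxO and Irs1 transcripts lay near the middle. The ranking took no account of level. Counts per library were 1057 to 1939 for Mtor and 1133 to 2109 for Akt1, against 188 to 411 for Akt2 and 72 to 323 for Foxo1.

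**Figure D1:**
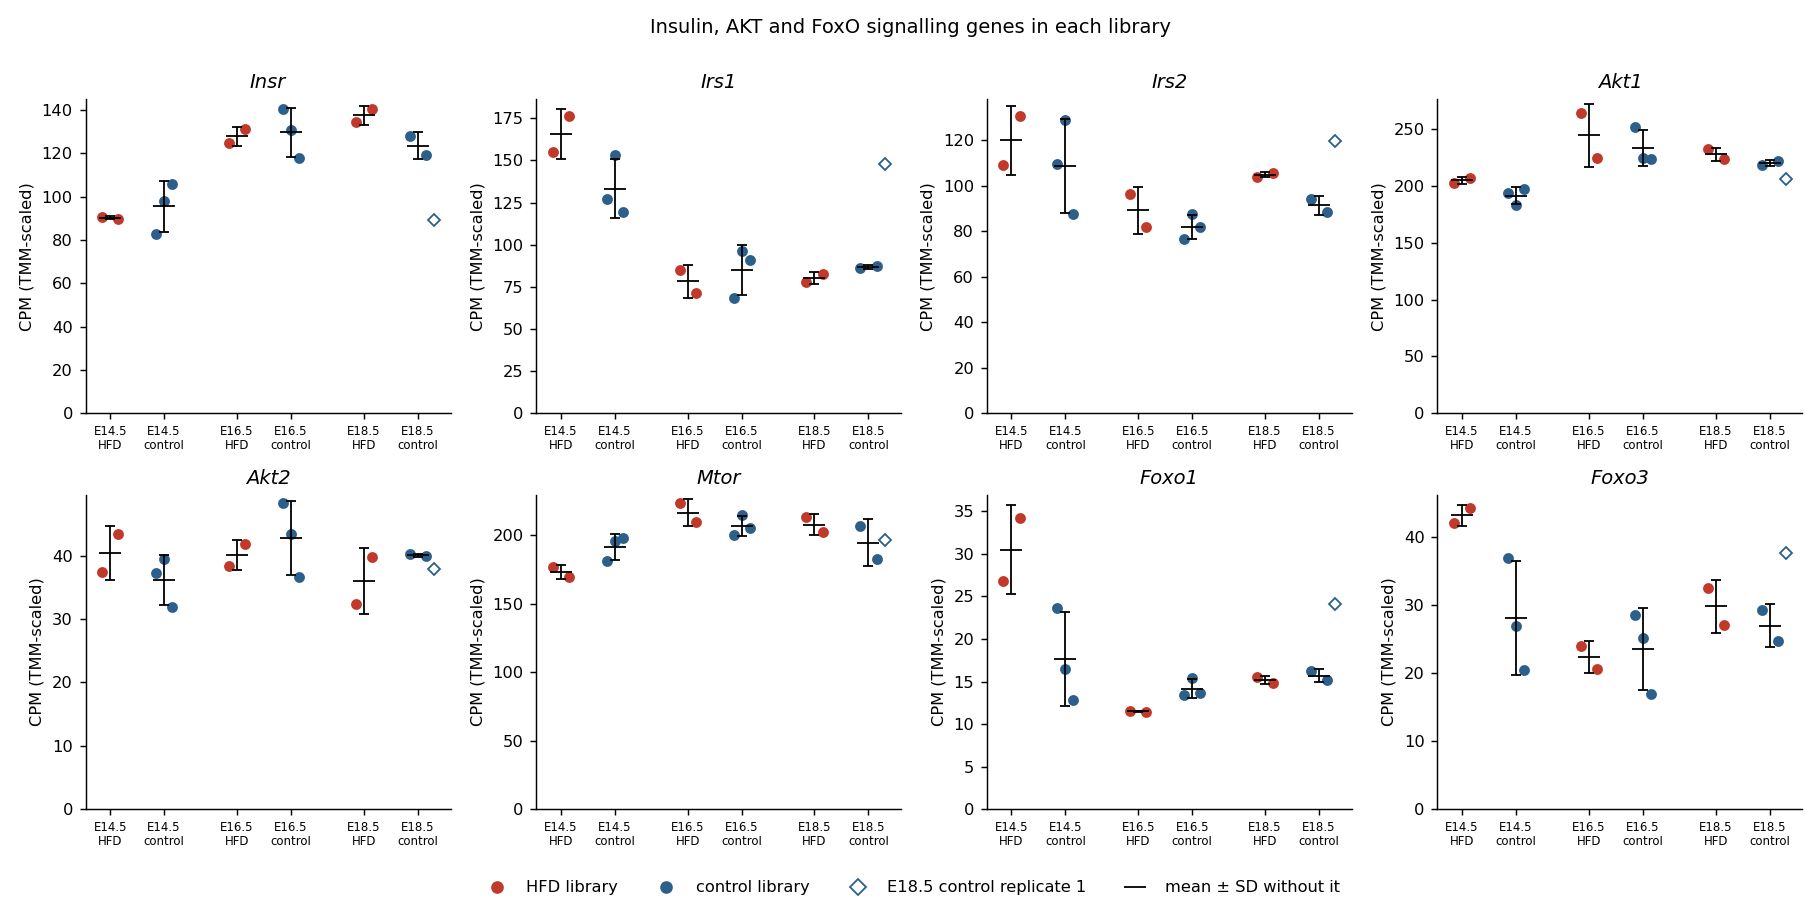
Level of each of the 8 genes (CPM, y axis) in each library by stage and diet (x axis). Red points are HFD and blue points control libraries, bars are the mean ± SD, and the open diamond is E18.5 control replicate 1, which is not in the mean. Foxo1 was highest in the E14.5 HFD libraries, at 26.8 and 34.2 CPM, and Mtor stayed between 170 and 224 CPM in the 14 libraries of the fit.

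The first set of comparisons asked how the maternal diet related to these genes at each stage. At E14.5 the FoxO genes showed the widest separation. Foxo1, a forkhead factor that AKT inactivates, was at 26.8 and 34.2 CPM in HFD libraries, against 23.6, 16.46 and 12.9 CPM in control libraries 1, 2 and 3. Foxo3, its close relative, was at 42.1 and 44.3 CPM in HFD libraries, against 37.0, 27.0 and 20.4 CPM in control libraries. For both genes each HFD library lay above every control library, and control replicate 1 was the control nearest to them. The log2 fold change of Foxo1 was 0.80 ± 0.20 (SE; 95% interval 0.36 to 1.24), with an edgeR p of 0.00186 before and 0.247 after adjustment. For Foxo3 it was 0.63 ± 0.24 (0.12 to 1.14), with an edgeR p of 0.0200 before and 0.406 after adjustment. Neither passed the threshold.

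Irs1, the docking protein that links the receptor to PI3-kinase, was at 155 and 176 CPM in E14.5 HFD libraries, against 127, 153 and 119 CPM in control libraries. The HFD libraries lay just above the controls, with a log2 fold change of 0.31 ± 0.15 and an edgeR adjusted p of 0.549. Irs2, the second docking protein, was at 109 and 131 CPM in HFD libraries, against 110, 129 and 87.7 CPM in control libraries, and these ranges overlapped. Insr itself was at 90.8 and 89.9 CPM in HFD libraries, against 82.9, 98.1 and 106 CPM in control libraries, so that HFD values fell inside the control range.

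The kinases differed little with diet at E14.5. Akt1, the broadly expressed AKT, was at 203 and 207 CPM in HFD libraries, against 194, 183 and 197 CPM in control libraries, a narrow separation with a log2 fold change of 0.10 ± 0.10. Mtor, the kinase of both mTOR complexes, was at 177 and 170 CPM in HFD libraries, against 181, 196 and 198 CPM in control libraries, with HFD lower in each pairing (−0.14 ± 0.10). Akt2, the AKT best known from insulin-responsive tissue, was at 37.4 and 43.5 CPM in HFD libraries, against 37.3, 39.4 and 31.9 CPM in control libraries, with overlapping ranges.

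In all, 0 of the 8 genes passed in edgeR at E14.5, where 0% of all genes were called. DESeq2 called 0 of the 8 and 97 genes in all, and limma-voom called 0 of the 8 and 0 genes. At an unadjusted edgeR p under 0.05 there were 2 members, Foxo1 and Foxo3, both higher in HFD, against 4.65% of all genes higher and 4.96% lower. The libraries did not overlap for 4 members above control and 1 below, where 10.8% and 10.1% of all genes did so. The median log2 fold change was 0.15 over the 8 members and −0.02 over all genes tested. Foxo1 passed without E14.5 control replicate 1, at 1.06 and an edgeR adjusted p of 0.0134 with 194 genes called in all. Its adjusted p ranged from 0.0889 (DESeq2) to 0.953 (all 15 libraries) under alternatives that kept every library of these groups, and without HFD replicate 2 the log2 fold change was 0.61.

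Markers of tissue outside the brain also lay higher in HFD at E14.5. All 11 tested head mesenchyme and meninges genes had a log2 fold change above 0 in HFD, with a median of 0.60 and none past the threshold. Twist1, which marks head mesenchyme, was at 90.9 to 106 CPM in HFD and 29.0 to 68.1 CPM in control libraries. Among the E14.5 control libraries, Foxo1 and Foxo3 stood in the same order as the summed mesenchyme level. Control replicate 1 had the largest sum, and much of each sum was Col1a1, a collagen gene, at 2465 and 1836 CPM in HFD libraries, against 3253 CPM in control replicate 1. By the mean log2 CPM of the same 11 genes, which weights them equally, the HFD libraries (6.90 and 7.07) lay above control libraries 1, 2 and 3 (6.75, 6.36 and 5.59). By this mean all 5 libraries stood in the same order as by Foxo1 and by Foxo3. All 6 tested skeletal muscle genes were also above 0 (median 1.195), and the list summed to 117 and 50.04 CPM in HFD libraries, against 114, 5.49 and 4.75 CPM in control libraries. All 4 cartilage genes (median 0.61) and all 7 surface epithelium genes (median 0.67) lay above 0 as well. By mean log2 CPM the cartilage list ordered the 5 libraries as Foxo1 and Foxo3 did. Its sum was highest in control replicate 1 (1375 CPM, against 1147 and 1073 CPM in HFD libraries). By mean log2 CPM skeletal muscle put HFD replicate 2 (1.92) below control replicate 1 (2.86). Surface epithelium put HFD replicate 2 (3.77) below HFD replicate 1 (4.25). Cortical markers leaned the other way, with 6 of 10 neuron genes (median −0.33) and 6 of 10 progenitor genes (−0.26) below 0. None of these genes passed the threshold. The progenitor genes summed to 1850 to 1927 CPM in HFD libraries, against 2165 to 2234 CPM in control libraries, and the neuron sums overlapped. By mean log2 CPM both cortical lists overlapped between the diets. The part of all these markers in the FoxO values was not tested.

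**Figure D2:**
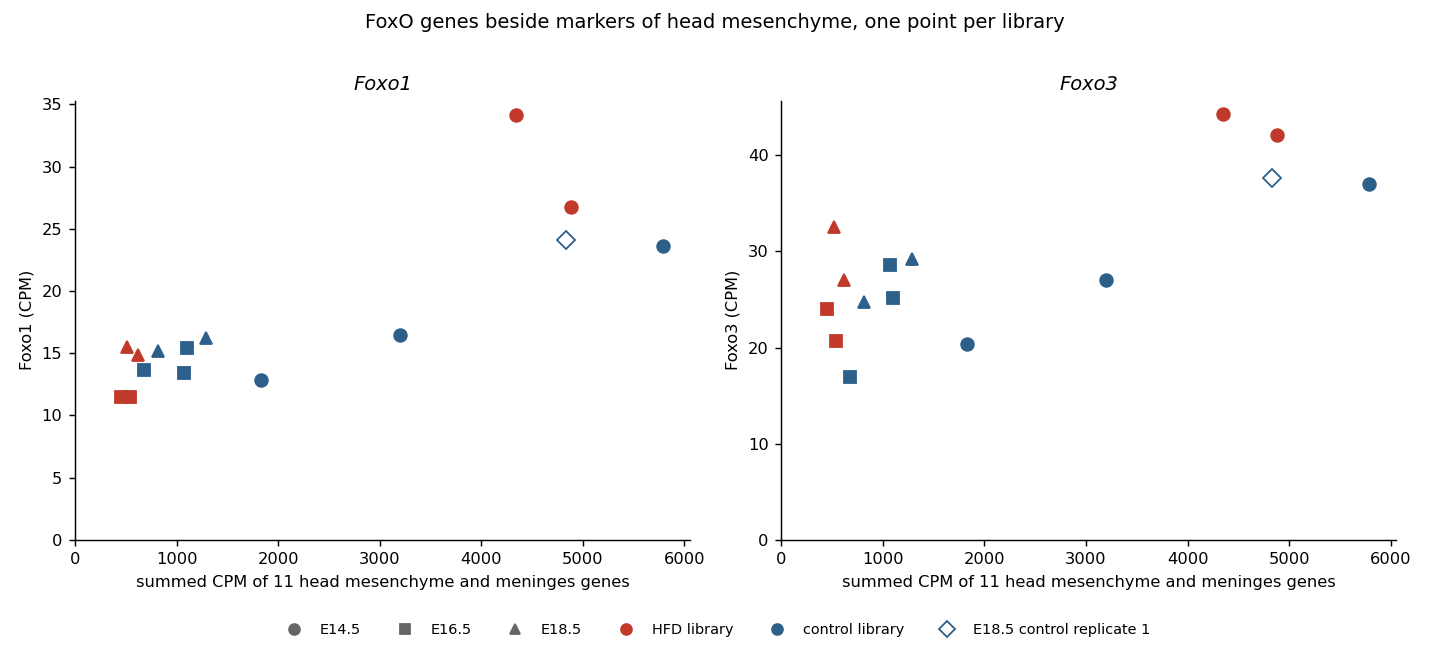
Foxo1 (left) and Foxo3 (right) in CPM (y axis) against the summed CPM of 11 head mesenchyme and meninges genes (x axis), with 1 point per library. Shape gives the stage, red is HFD and blue control, and the open diamond is E18.5 control replicate 1, at 24.1 CPM Foxo1 and a sum of 4833 CPM. The E14.5 libraries spread to the right, and both HFD libraries were higher in Foxo1 and Foxo3 than the control library of the largest sum (5786 CPM). By the mean log2 CPM of the same genes, which is not plotted, both HFD libraries (6.90 and 7.07) lay above that control library (6.75).

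At E16.5 the members differed little with diet. Foxo1 was at 11.5 and 11.4 CPM in HFD libraries, against 13.4, 15.4 and 13.7 CPM in control libraries. It was the only member whose libraries did not overlap (log2 fold change −0.30 ± 0.22), where 7.87% of all genes lay below and 9.73% above control without overlap. Foxo3 was at 24.0 and 20.7 CPM in HFD libraries, against 28.6, 25.1 and 16.9 CPM in control libraries, with HFD inside the control range. The other log2 fold changes lay between −0.12 (Irs1) and 0.12 (Irs2). In edgeR 0 of the 8 genes passed (0% of all genes), while an unadjusted p under 0.05 was found for 0 members, 153 higher genes (0.992%) and 209 lower ones (1.36%). DESeq2 called 0 genes and limma-voom 2, neither of them a member. Head mesenchyme genes had the opposite direction from E14.5, with all 11 below 0 in HFD (median −0.91). All 7 endothelium genes (median −0.38), all 5 red blood cell genes (−0.84) and all 4 cartilage genes (−0.05) were below 0 as well. The same held for 7 of 8 microglia and macrophage genes (−0.40) and 4 of 7 surface epithelium genes (−0.02). Skeletal muscle had 4 of 6 genes above 0 (0.38), at very low levels. Of the cortical lists, 6 of 10 neuron genes lay above 0 (0.04) and 6 of 10 progenitor genes below (−0.01). The part of these markers in the member values was not tested.

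At E18.5 there were 2 libraries on each diet. Insr was at 134 and 141 CPM in HFD libraries, against 128 and 119 CPM in control libraries, and Irs2 was at 104 and 106 CPM, against 94.3 and 88.5 CPM. Both were above control without overlap, with log2 fold changes of 0.15 ± 0.13 and 0.20 ± 0.17. Akt1 also lay above, and Irs1 and Akt2 lay below control without overlap. Such separation was common, at 14.1% of all genes above and 14.9% below. Foxo1 was at 15.5 and 14.9 CPM in HFD libraries, against 16.2 and 15.2 CPM in control libraries, and Foxo3 was at 32.6 and 27.1 CPM, against 29.2 and 24.7 CPM. The intervals for the log2 fold change were −0.56 to 0.46 for Foxo1 and −0.44 to 0.72 for Foxo3. In edgeR 0 of the 8 genes passed and 0% of all genes were called, while an unadjusted p under 0.05 was found for 0 members, 103 higher genes (0.668%) and 141 lower ones (0.915%). DESeq2 called 12 genes and limma-voom 0, with 0 members in each. Several marker lists of other cells also lay lower in HFD at E18.5. A log2 fold change below 0 was found in 10 of 11 head mesenchyme genes (median −0.62) and 7 of 7 endothelium genes (−0.20). The same held for 6 of 7 surface epithelium genes (−0.54) and 6 of 8 microglia and macrophage genes (−0.19). More genes lay above 0 among skeletal muscle (4 of 6, median 0.33), cartilage (3 of 4, 0.07) and red blood cell genes (4 of 5, 0.16). The cortical lists also had more genes above 0, with 9 of 10 progenitor genes (median 0.12) and 7 of 10 neuron genes (0.05). None passed the threshold. The mesenchyme sum was 516 and 621 CPM in HFD libraries, against 1288 and 816 CPM in control libraries, and the part of these markers in the member values was not tested.

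The library set apart at E18.5 had the level of E14.5 for several members. It held 24.1 CPM of Foxo1, 37.7 of Foxo3, 148 of Irs1, 119 of Irs2 and 89.3 of Insr. For each of these 5 genes that value lay outside the range of the other 4 E18.5 libraries and inside the range of the 5 E14.5 libraries. With it in the fit, the E18.5 log2 fold change of Irs1 was −0.41 and that of Insr 0.29, and 0 members passed.

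**Figure D3:**
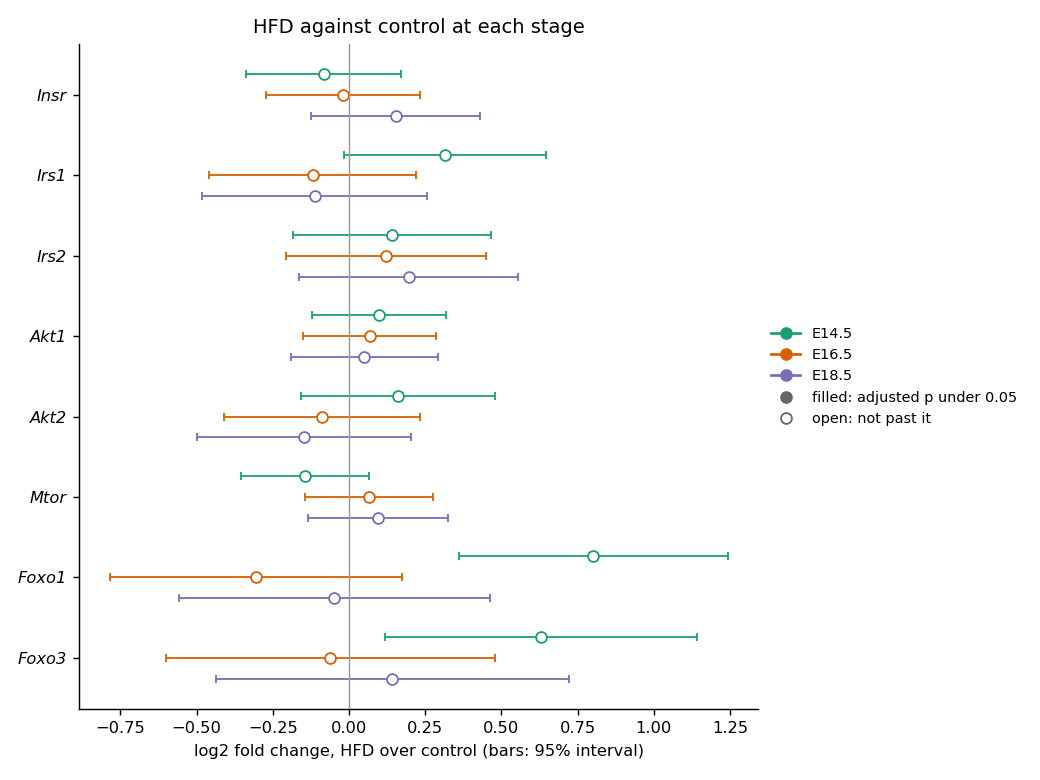
Log2 fold change of HFD over control (x axis) for each of the 8 genes (y axis), with 1 point per stage in its own colour and bars for the 95% interval. All points are open because no gene passed the adjusted threshold. The Foxo1 and Foxo3 intervals at E14.5, from 0.36 to 1.24 and from 0.12 to 1.14, lie above 0.

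Averaged over the 3 stages, the diet effect of the members lay between −0.03 ± 0.09 (Akt2) and 0.24 ± 0.14 (Foxo3) on the log2 scale. In edgeR 0 of the 8 genes passed and 0% of all genes were called, while an unadjusted p under 0.05 was found for 0 members, 213 higher genes (1.38%) and 238 lower ones (1.54%). DESeq2 called 4 genes and limma-voom 0, with 0 members in each. Whether the effect of diet differed between stages was tested next. For Foxo1 the E16.5 effect minus the E14.5 effect was −1.11 ± 0.30, with an edgeR p of 0.00308 before and 0.404 after adjustment. The same difference was −0.69 ± 0.34 for Foxo3 and −0.43 ± 0.22 for Irs1. Again 0 of the 8 genes passed in edgeR (0% of all genes), while an unadjusted p under 0.05 was found for 1 member (Foxo1), 664 higher genes (4.31%) and 574 lower ones (3.72%). DESeq2 called 39 genes and limma-voom 0, with 0 members in each. Without E14.5 control replicate 1 the Foxo1 difference was −1.36, with an edgeR adjusted p of 0.0390. Between E18.5 and E16.5 the differences lay between −0.06 and 0.26 and 0 of the 8 genes passed in edgeR (0% of all genes), while an unadjusted p under 0.05 was found for 0 members, 102 higher genes (0.662%) and 100 lower ones (0.649%). DESeq2 called 1 gene and limma-voom 0, with 0 members in each.

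The second set of comparisons asked how the genes moved with development on each diet. On the HFD, 5 of the 8 genes changed between E14.5 and E16.5: Insr and Mtor rose, and Irs1, Foxo1 and Foxo3 fell. This share stood against 30.9% of all genes, 18.2% higher and 12.7% lower at E16.5. Libraries did not overlap for 3 members above and 4 below, against 37% and 30.8% of all genes, and 3 members higher and 4 lower had an unadjusted p under 0.05, as had 23.6% and 17.1% of all genes. Foxo1 was at 11.5 and 11.4 CPM at E16.5, against 26.8 and 34.2 CPM at E14.5, so that its E16.5 values lay far below (log2 fold change −1.41 ± 0.23, edgeR adjusted p = 0.000908). Foxo3 was at 24.0 and 20.7 CPM at E16.5, against 42.1 and 44.3 CPM at E14.5 (−0.95 ± 0.26, edgeR adjusted p = 0.0164). Irs1 was at 85.2 and 71.5 CPM at E16.5, against 155 and 176 CPM at E14.5 (−1.08 ± 0.17, edgeR adjusted p = 0.000705). These 3 genes were lower in every E16.5 HFD library than in any E14.5 HFD library.

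Insr went the other way on the HFD, at 125 and 131 CPM at E16.5, against 90.8 and 89.9 CPM at E14.5 (0.50 ± 0.13, edgeR adjusted p = 0.0103). Mtor was at 224 and 210 CPM at E16.5, against 177 and 170 CPM at E14.5 (0.32 ± 0.11, edgeR adjusted p = 0.0366). Irs2 and Akt1 also did not overlap between these stages but missed the threshold, at −0.43 ± 0.17 (edgeR adjusted p = 0.0682) and 0.25 ± 0.11 (0.103). Akt2 was near 0 (−0.01 ± 0.16). Insr and Foxo3 were lost without E14.5 HFD replicate 1 (edgeR adjusted p 0.05155 and 0.050001), E14.5 HFD replicate 2 (0.0723 and 0.0839) or E16.5 HFD replicate 2 (0.0572 and 0.109), and Mtor in 7 of the 14 fits that left out 1 library, including those without any 1 of the 4 libraries compared. Irs2 passed without E14.5 control replicate 2 (0.0331) or E14.5 control replicate 3 (0.0278). With all 15 libraries, 16.8% of all genes and 3 members, Irs1, Foxo1 and Foxo3, passed.

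On control chow 4 of the 8 genes changed between E14.5 and E16.5, against 23.2% of all genes (13.4% higher, 9.81% lower). Insr and Akt1 rose and Irs1 and Irs2 fell. Libraries did not overlap for 3 members above and 2 below, against 21% and 15.5% of all genes, and the same 4 members had an unadjusted p under 0.05, against 20.2% of all genes higher and 16.2% lower. Insr was at 140, 131 and 118 CPM at E16.5, against 82.9, 98.1 and 106 CPM at E14.5 (0.44 ± 0.10, edgeR adjusted p = 0.0104). Irs1 was at 68.2, 96.1 and 90.6 CPM at E16.5, against 127, 153 and 119 CPM at E14.5 (−0.65 ± 0.14, edgeR adjusted p = 0.00639). In both genes the stages did not overlap. Irs2 (−0.41 ± 0.14, edgeR adjusted p = 0.0474) and Akt1 (0.28 ± 0.09, edgeR adjusted p = 0.0385) were closer to the threshold, and each was lost in 11 of the 14 fits that left out 1 library, including each fit without an E16.5 control library. With all 15 libraries 0 of the 8 genes and 0% of all genes passed in this comparison, the smallest member adjusted p being 0.0927 for Insr.

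The FoxO genes had smaller log2 fold changes on control chow, and neither passed. Foxo1 was at 13.4, 15.4 and 13.7 CPM at E16.5, against 23.6, 16.46 and 12.9 CPM at E14.5 (−0.30 ± 0.19, edgeR adjusted p = 0.289). Foxo3 was at 28.6, 25.1 and 16.9 CPM at E16.5, against 37.0, 27.0 and 20.4 CPM at E14.5 (−0.26 ± 0.22, edgeR adjusted p = 0.442). Both overlapped between stages, with E14.5 control replicate 3 within or below the E16.5 range. The difference between the diets in this change is the interaction given above, which did not pass for either gene. The markers of surrounding tissue moved with stage on both diets, the mesenchyme sum being 451 and 542 CPM in E16.5 HFD libraries and 678 to 1098 CPM in E16.5 control libraries, and their part in these changes was not tested.

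**Figure D4:**
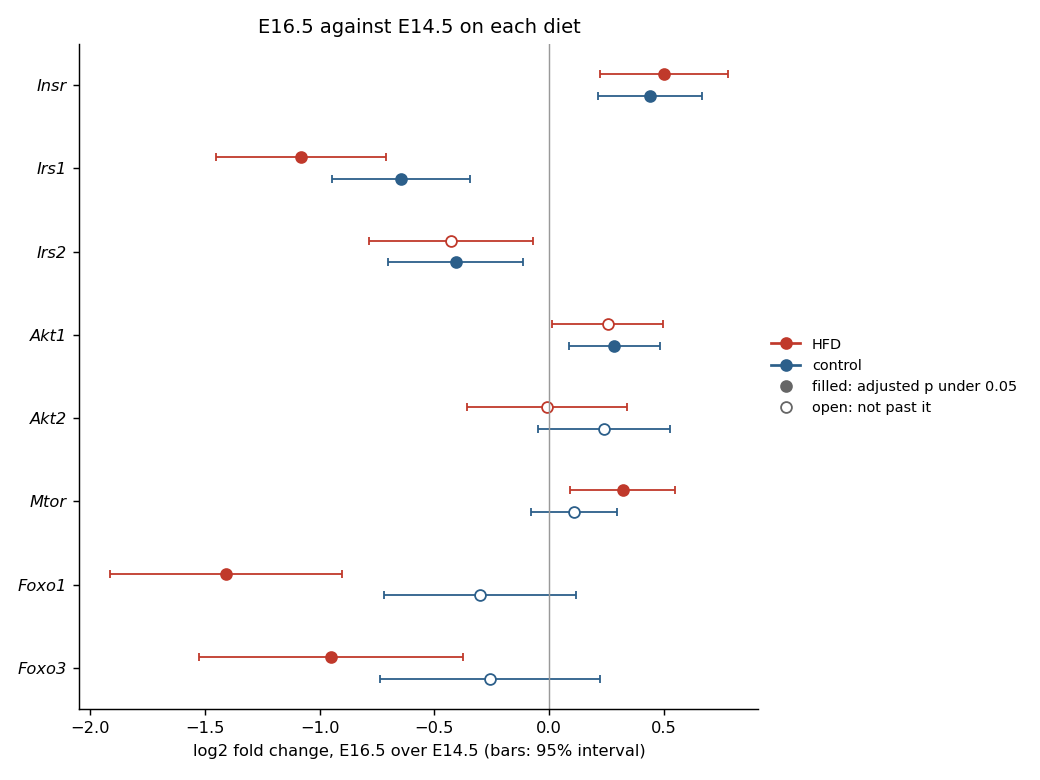
Log2 fold change of E16.5 over E14.5 (x axis) for each of the 8 genes (y axis) in HFD (red) and control (blue) libraries, with bars for the 95% interval. Filled points passed the adjusted threshold: Insr, Irs1, Mtor, Foxo1 and Foxo3 on the HFD, and Insr, Irs1, Irs2 and Akt1 on control chow. Insr lay at 0.50 and 0.44 and Irs1 at −1.08 and −0.65 on the HFD and control diets.

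From E16.5 to E18.5, 0 of the 8 genes passed on either diet, while 5.88% of all genes on the HFD (2.04% higher, 3.84% lower) and 10.3% on control chow (4.87% higher, 5.4% lower) did. At an unadjusted p under 0.05 edgeR had 0 members on either diet, against 9.57% of all genes higher and 11.4% lower on the HFD and 12.8% each way on control chow, and DESeq2 and limma-voom called 0 members. Libraries did not overlap for 4 members above and 0 below on the HFD (27.2% and 27.8% of all genes) and for 1 above and 1 below on control chow (23.5% and 22.6%). The largest member log2 fold changes were 0.41 ± 0.27 for Foxo3 and 0.40 ± 0.24 for Foxo1 on the HFD. In control libraries Foxo3 was at 0.21 ± 0.24 and Foxo1 at 0.15 ± 0.21. With all 15 libraries 0.00649% of all genes, a single gene, passed on the HFD and 0% in control, with 0 members.

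Count ratios between relatives within a library need no scaling between libraries. The ratio of Irs2 to Irs1 counts was 0.705 to 0.863 at E14.5, 0.902 to 1.14 at E16.5 and 1.01 to 1.33 at E18.5. The E14.5 libraries thus lay below all later ones, and E18.5 control replicate 1, at 0.809, lay within the E14.5 range. The ratios of Akt2 to Akt1 and of Foxo3 to Foxo1 overlapped between all stages.

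The profiles of the members over the 14 libraries were compared by the root mean square difference of log2 CPM, each gene centred on its own mean. Akt1 and Mtor had the smallest difference (0.114), Foxo1 and Foxo3 differed by 0.222, and Insr and Irs1 were farthest apart (0.657). This measure is small for any pair of steady genes. Akt1 and Mtor had the lowest SD of log2 CPM among the members (0.142 and 0.117), so their small difference does not show a shared pattern. Among 10911 genes with a mean of at least 5 CPM, the profiles closest to Foxo1 were those of Dusp6 (0.172), a phosphatase of ERK, Nbl1 (0.181), a secreted BMP antagonist, and Vangl1 (0.185), a planar polarity protein. The median gene was at 0.528 from Foxo1. Closest to Foxo3 were Furin (0.117), a proprotein convertase, Sh3pxd2a (0.174), a scaffold of invasive cell protrusions, and Slc9a3r1 (0.177), a scaffold of membrane proteins, with a median gene at 0.492. Closest to Irs2 were Cluh (0.0976), Dffa (0.108) and Rfx5 (0.110), with a median gene at 0.369.

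The rest of the pathway was described through 5 lists. In none of the diet comparisons did a gene of these lists pass in edgeR. Among the 18 PI3-kinase, AKT and phosphatase genes at E14.5, 6 were above 0 and the median log2 fold change was −0.11. Phlpp1, a phosphatase of AKT, was at −0.32 and Gsk3b, a kinase that AKT inhibits, at −0.21. Among 16 receptor-level adaptors and inhibitors, Socs2 (0.49), Socs1 (0.95), both suppressors of cytokine signalling, and Shc1 (0.39), an adaptor toward Ras, came first. Socs1 had low levels, at 7.15 and 8.57 CPM in HFD and 5.31, 2.86 and 4.17 CPM in control libraries. In the mTOR list the first genes were Prr5 (0.45), Akt1s1 (0.22) and Rps6kb1 (0.13). Foxo4, the FoxO gene next in the family, was at 33.7 and 37.2 CPM in HFD libraries, against 29.1, 28.8 and 19.2 CPM in control libraries (0.47 ± 0.19, edgeR adjusted p = 0.441), ahead of Ywhag (−0.21) and Stk4 (−0.15).

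The FoxO target genes at E14.5 were described because AKT acts on FoxO proteins. Of 22 tested, 12 were above and 10 below 0, with a median of 0.03. The list was not split by whether FoxO factors raise or lower a gene, so its median does not measure FoxO activity. Ccng2, an atypical cyclin, was at −0.26, Pdk4, a brake on pyruvate oxidation, at 1.05 and Cdkn1b, a cell cycle inhibitor, at −0.33, and none passed. Pdk4 had very low levels, at 1.85 and 1.06 CPM in HFD and 0.685, 0.686 and 0.695 CPM in control libraries. The median was −0.04 at E16.5 and 0.01 at E18.5, against 0.011 and 0.00085 over all genes. Txnip, a redox and glucose uptake regulator, had the smallest p of the list at E16.5 (−0.42 ± 0.14, edgeR adjusted p = 1). Socs2 had the smallest p of its list at each stage, at 0.49 at E14.5, 0.42 at E16.5 and −0.70 at E18.5.

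At the later stages no list gene passed either. At E16.5 the genes of smallest p included Ppp2r1a (0.14) and Pik3r2 (0.09) in the PI3-kinase list. The receptor-level genes next to Socs2 were Sh2b2 (0.26) and Igf1r (0.14), and the mTOR genes were Rps6kb1 (−0.17), Mapkap1 (0.14) and Tsc2 (0.13). Ywhae (−0.14), Stk4 (−0.08) and Skp2 (−0.12) led the FoxO partners, and Sesn3 (−0.13) and Rbl2 (0.19) came after Txnip among the targets. At E18.5 they were Ppp2ca (−0.33), Gsk3a (0.16) and Sgk1 (0.17), then Grb14 (−0.59) and Socs1 (−0.66) beside Socs2, and Tsc1 (0.21), Rps6kb2 (0.22) and Tsc2 (0.12). Among FoxO partners Usp7 (−0.10), Stk4 (0.06) and Ywhaz (−0.09) came first, and among targets Pdk4 (0.80), Txnip (0.17) and Cdkn1b (−0.21). Pdk4 was again low at E18.5, at 1.72 and 1.63 CPM in HFD libraries, against 1.06 and 0.84 CPM in control libraries. Socs1 was at 1.38 and 1.05 CPM, against 2.13 and 1.69 CPM. Averaged over stages the smallest p in the receptor-level, mTOR, FoxO partner and target lists belonged to Igf1r (0.12), Tsc2 (0.10), Foxo4 (0.19) and Cdkn1b (−0.23).

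The lists were also followed with development. In the PI3-kinase list 8 of 18 genes rose and 1 fell between E14.5 and E16.5 on either diet, where 18.2% of all genes rose and 12.7% fell on the HFD and 13.4% rose and 9.81% fell on control chow. Pik3cd, a catalytic subunit, was at 35.3 and 34.7 CPM at E16.5, against 16.0 and 16.504 CPM at E14.5 on the HFD (log2 fold change 1.11), and at 37.0, 33.2 and 32.0 CPM, against 19.7, 14.9 and 19.0 CPM, on control chow (0.93). This gene did not overlap between the stages on either diet. Pik3r2, a regulatory subunit, rose by 0.62 on the HFD and 0.49 on control chow, and Inppl1, a lipid phosphatase that opposes the pathway, fell by 0.70 and 0.61.

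Receptor-level genes split, with 5 higher and 4 lower of 16 on the HFD (18.2% and 12.7% of all genes) and 4 higher and 4 lower on control chow (13.4% and 9.81%). Grb10, an imprinted inhibitor of the insulin and IGF receptors, had the largest fall. It was at 157 and 150 CPM at E16.5, against 923 and 1158 CPM at E14.5 on the HFD (−2.76 ± 0.33, edgeR adjusted p = 0.000200), and at 124, 178 and 228 CPM, against 724, 1056 and 534 CPM, on control chow (−2.13 ± 0.26, edgeR adjusted p = 0.000590). Its E16.5 libraries lay far below all E14.5 libraries on both diets. Shc1 fell by 1.72 on the HFD and 1.21 on control chow, and Socs1 fell by 2.67 on the HFD and Trib1, a pseudokinase, by 0.72 on control chow. Sh2b2, a receptor adaptor (1.11 and 0.72), Grb2 (0.56 and 0.44) and Sos1 (0.38 and 0.32), which connect receptors to Ras, rose. In the mTOR list Ulk1, an autophagy kinase (0.54 and 0.49), and Tsc2, a brake on mTOR (0.37 and 0.29), rose, and 1 of 18 genes fell on each diet, so that 2 higher and 1 lower stood against the same shares of all genes. That one was Eif4ebp1, a translation repressor that mTOR inactivates, at −1.48 ± 0.24 on the HFD and −1.004 ± 0.19 on control chow.

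Foxo6, the FoxO gene best known from the developing brain, rose on both diets. It was at 58.5 and 57.5 CPM at E16.5, against 8.42 and 5.50 CPM at E14.5 on the HFD (3.06 ± 0.48, edgeR adjusted p = 0.000933), and at 64.4, 57.3 and 36.0 CPM, against 8.90, 3.77 and 15.1 CPM, on control chow (2.50 ± 0.39, edgeR adjusted p = 0.00175). Its stages did not overlap on either diet. The sum of 10 cortical neuron genes also rose, from 1356 to 3395 CPM at E14.5 to 5477 to 6533 CPM at E16.5. The part of neuron content in the Foxo6 values was not tested. Foxo4 fell by 0.73 on the HFD, and Ywhag, a cytoplasmic anchor for phosphorylated FoxO proteins, rose by 0.86 on the HFD and 0.59 on control chow. Among 22 FoxO targets, 6 rose and 4 fell on the HFD (18.2% and 12.7% of all genes), and 6 rose and 3 fell on control chow (13.4% and 9.81%). Bcl6, a transcriptional repressor (1.73 and 2.07), Gabarapl1, an autophagy protein (1.01 and 0.77), and Ccng2 (0.76 and 0.60) rose, and the cyclin Ccnd1 (−1.44 and −1.52) and Sesn3 (−0.82 and −0.55) fell on the HFD and control diets. Txnip (−0.47) also fell on the HFD, and Gadd45a, a DNA damage response gene (−0.70), on control chow. The median over the targets was 0.13 on the HFD and 0.27 on control chow, against 0.05 and 0.02 over all genes. As for the members, with all 15 libraries 0% of genes passed on control chow.

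**Figure D5:**
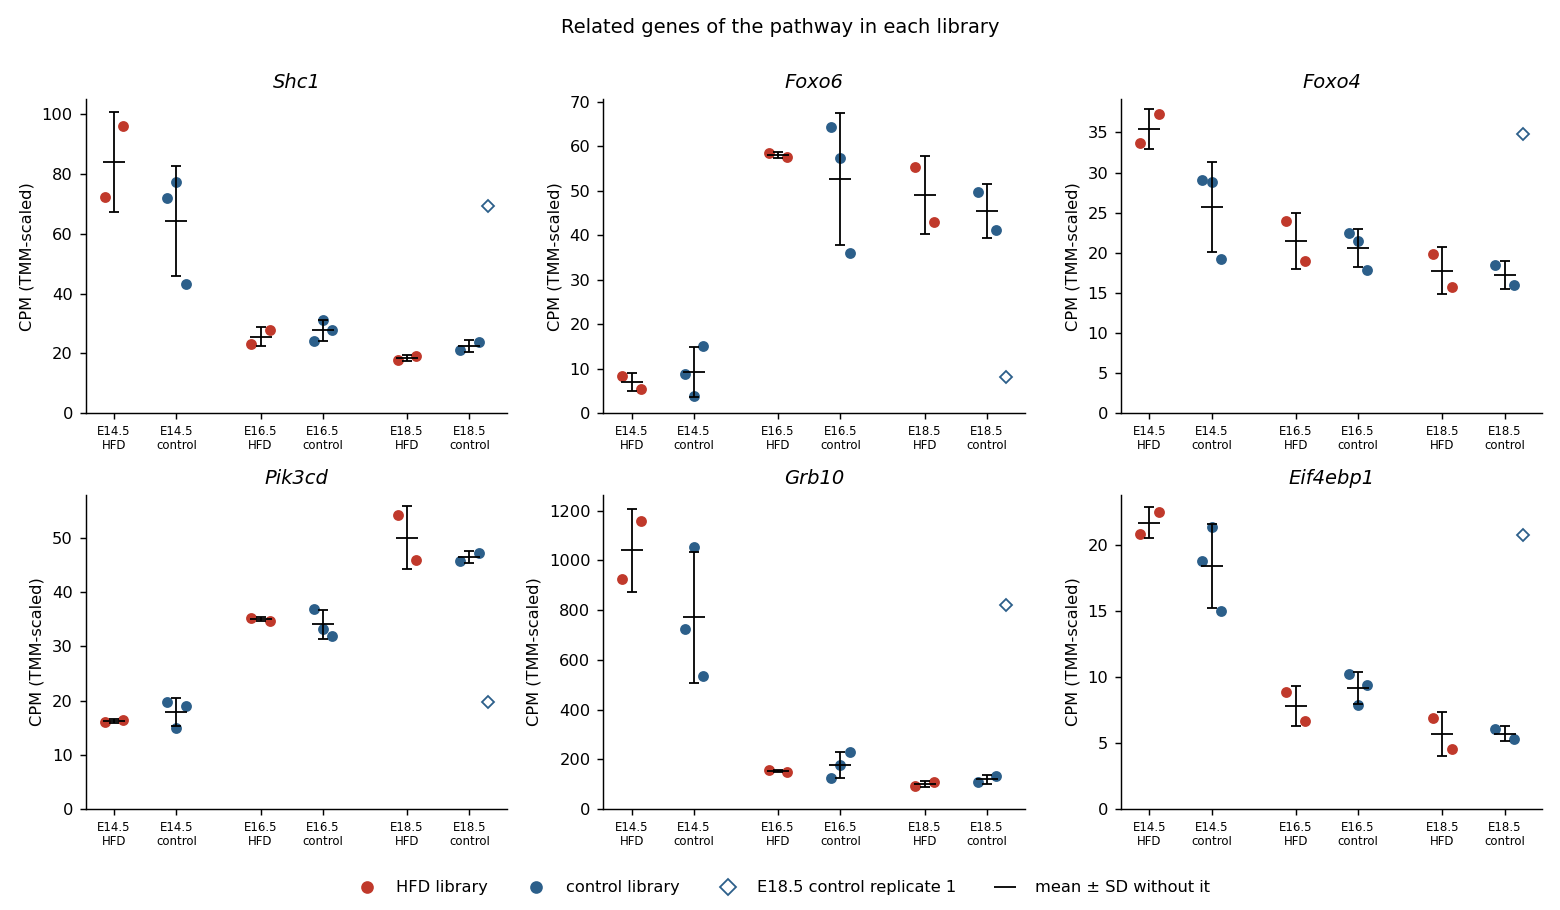
Level of 6 related pathway genes (CPM, y axis) in each library by stage and diet (x axis), with HFD in red and control in blue, bars for the mean ± SD and an open diamond for E18.5 control replicate 1. Foxo6 and Pik3cd were low and Shc1, Grb10 and Eif4ebp1 high at E14.5. The diamond lay near the E14.5 libraries, for example at 822 CPM Grb10 and 8.19 CPM Foxo6.

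Fewer pathway genes changed from E16.5 to E18.5, and so did fewer of all genes. On the HFD 5.88% of all genes passed, against 30.9% from E14.5 to E16.5, and on control chow 10.3%, against 23.2%. In the PI3-kinase list Sgk1, a kinase related to AKT (1.13 on the HFD and 0.84 on control chow), and Pik3r1, a regulatory subunit (0.57 and 0.70), rose, and Inppl1 (−0.78 and −0.85) fell again. Pik3cd also rose on control chow (0.45). On control chow Ywhag rose by 0.44 and Stk4, a kinase of FoxO proteins, fell by 0.32. Skp2, a ubiquitin ligase subunit that acts on FoxO proteins, fell by 0.86 on the HFD and 1.05 on control chow. Of the targets, Bcl2l11, a cell death inducer (−0.80 and −0.78), and the cyclin Ccnd2 (−0.997 and −0.956) fell on both diets, Txnip rose on the HFD (0.76) and Ccnd1 fell on control chow (−1.08). The receptor-level and mTOR lists had 0 genes past the threshold in edgeR on either diet, where few of all genes passed (5.88% and 10.3%).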

How the data were processed

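The authors deposited a single table of expected counts, that is estimated counts per gene rounded to integers, covering 32623 Ensembl genes of the rat and 15 libraries without normalisation. Bowtie2 alignment to rn6 and counting with RSEM are given in the study's methods, whereas the submitters' processing notes list HTSeq. How reads common to several genes were divided is therefore uncertain, and the strand setting was not stated in these sources. No member shared all its counts with another gene.

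The 8 members, the gene lists and the tests were chosen with earlier results of these data known. Genes passing edgeR's filterByExpr (15417) were tested after TMM scaling over all libraries. The quasi-likelihood test (edgeR 4.0.16 in R 4.3.3, robust) fitted 1 mean per stage and diet to the 14 libraries without E18.5 control replicate 1. An SE is the size of the log2 fold change over the root of its F statistic. Log2 CPM had a prior count of 2. Alternatives were other scaling (RLE, upper-quartile), other tools (DESeq2 1.42.0, limma-voom of limma 3.58.1), other filters (none, or 10 counts or more in each library), a replicate block, all 15 libraries, a fit of just the groups compared and fits without each library in turn. DESeq2 on all 15 libraries was added after seeing the data. The fit was tested on simulated data.

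Named genes were the 8 members, in each list the 3 genes of smallest p in a diet comparison (only the first for the average over stages) and up to 3 per direction past the threshold in a stage comparison, and the 3 profiles most like Foxo1, Foxo3 and Irs2. Some genes that this rule would name are not reported here. The members had 72 to 2109 counts per library, which sets their counting error. Promoters came from RefSeq GRCr8 and were not placed on rn6.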

Additional observations from a re-analysis of the deposited data

How the results depend on the processing

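The members that passed between E14.5 and E16.5 depended on the fit. On control chow 4 passed, against 2 with no filter, 0 with all 15 libraries, 1 with only the groups compared (1771 genes in all, against 3575), 1 with DESeq2 on all 15 libraries (1696 genes) and 2 to 4 without 1 library, in all 14 fits and in those without a library compared. On the HFD 5 passed, against 3 with all 15 libraries (2584 genes, against 4760), 2 to 4 without 1 of the libraries compared and 2 to 6 over all 14 fits that left out 1 library. The E14.5 diet effect and its difference from E16.5 had 0 members, and 0 to 1 without 1 library. Irs2 on the HFD passed with RLE (edgeR adjusted p = 0.0411), upper-quartile factors (0.0280) and DESeq2 (0.0308).

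Of 560 member values under alternatives that kept all libraries of the fit or added the one apart, 529 kept direction and side of the threshold, 23 no longer passed, 4 passed newly and 4 changed sign. The 23 losses could come only from the results that passed in the main fit, 4 on control chow and 5 on the HFD. Most of the 560 values belonged to results that had not passed and so had no pass to lose. Signs changed for values near 0. For HFD against control at E18.5 Foxo3 was −0.197 with the replicate block, −0.034 with all 15 libraries and −0.037 with DESeq2 on them. For E18.5 against E16.5 in control Irs1 was −0.000644 with the block. Without 1 library, HFD against control at E16.5 ran from −0.085 to 0.039 for Insr, −0.25 to 0.0013 for Irs1, −0.0051 to 0.24 for Irs2, −0.051 to 0.18 for Akt1, −0.19 to 0.0059 for Akt2 and −0.26 to 0.095 for Foxo3. Likewise E18.5 against E16.5 in control ran from −0.10 to 0.13 for Irs1, −0.19 to 0.0030 for Akt2 and −0.18 to 0.00081 for Mtor, and on the HFD from −0.085 to 0.17 for Irs1 and −0.21 to 0.019 for Akt1. E16.5 against E14.5 on the HFD ran from −0.11 to 0.10 for Akt2. The cause was not tested.

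Samples with the same replicate number did not pair: correlations of their deviations were −0.143 to 0.242 over 28 pairs, against −0.259 to 0.259 over 53 other pairs. With the replicate block, 4 members passed on control chow and 6 on the HFD, Irs2 newly (edgeR adjusted p = 0.0490).

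Groups of 2 or 3 litters limit what could be detected: the 95% interval of the Foxo1 diet effect spanned −0.78 to 0.18 at E16.5. Where 1 library was left out of an HFD group, the lone library was assumed to vary like the other groups.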
